A study of Homo sapiens with 32 samples.

Results

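The regions described here are 12710 sites of open chromatin in a human kidney-derived cell line that carry a high peak score in one deposited list of summits but have no counterpart among the windows that were counted in another. A summit is the single base at which the signal of an accessible site is highest. Members were selected on 2 readouts of the deposited files, the summit score and the position of the counted windows. A summit had to score at or above the median of the list, 17.9 on a -log10 scale given by the authors' peak calling, and no window of the count table could cover it or lie within 100 bp. Of 259926 summits in the list, 129965 reached the median score. Of these, 115460 lay inside a counted window, 1795 lay at 1 to 100 bp from one, and the remaining 12710 are called outside summits below. At the score limit the lowest member scored 17.8823 and the highest summit below it 17.8821. At the distance limit the nearest member was 101 bp from a window and the farthest summit left out was at 100 bp. There were 1089 outside summits within 1 score unit above the limit and 1297 summits just as far from windows within 1 unit below it.

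The study used ATAC-seq, in which the Tn5 transposase cuts accessible DNA and leaves sequencing adapters behind, so that read ends pile up at open sites. All 32 labelled libraries came from 1 clone of HEK293T cells, HEK_CloneZD29, in which ZNF143, a zinc finger transcription factor, carries an inducible degron tag. In 16 libraries the cells had received dTAGV-1, a compound that directs tagged proteins to the proteasome, at 50 nM for 30 min, and the other 16 were controls. The libraries form 4 groups of 8, control and dTAGV-1 with replicate numbers 1 to 8 and the same with 9 to 16. The controls numbered 1 to 8 are named DMSO, the vehicle, in their titles and have the treatment field none, whereas those numbered 9 to 16 are given as DMSO throughout. Controls and treated cells carry the tag alike, so the groups differ in the compound and not in genotype. The labels tie the summit list to the libraries numbered 1 to 8, and it holds no value per library. Counts per window were available for the 16 libraries numbered 9 to 16, with totals of 2275856 to 13671039 per library. No label says that the replicates were separate cultures, so the spread among them may be technical. Of 6 genes fixed as markers of this line, PAX2, SIX2, EYA1 and NEFM had a high-scoring summit inside a window near a start, and LHX1 and INA had a lower-scoring summit with a window. Of 6 genes fixed for other tissues, PTPRC, CD3E, MYH6, INS and KRT5 had no summit within 500 bp of a start and ALB had a lower-scoring one.

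Accessible sites in a dividing cell line are mostly promoters, enhancers and sites bound by CTCF, the protein that anchors chromatin loops. Some lie in sequence that occurs in several near-identical copies, such as ribosomal RNA arrays, clusters of small nuclear RNA genes, segmental duplications and satellite DNA next to centromeres. A short read from such a copy can align equally well to several places, and a reference assembly may hold fewer copies than a cell does. ZNF143 binds promoters of coding genes and of small RNA genes through a site with a core and, in many cases, a separate upstream part, ACTACAA.

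The sequences below were chosen to show the kinds of DNA found among the outside summits. They were read from hg38 and run 5′ to 3′. The first 4 hold the ZNF143 core and the upstream part, which stand in capitals, and the fifth holds the core alone, in capitals. CHM and DQX1 are promoters in sequence that occurs once. Both chromosome 21 sites belong to a block on the short arm in which most such sites are repeated. The highest-scoring one is largely in sequence that occurs once. The sequence named for CKM, the muscle creatine kinase gene that has the nearest start, lies beside a window that was lower after dTAGV-1. The last 4, in lower case only, are the 101 bases centred on the highest-scoring outside summit, on a summit of the U2 small nuclear RNA array, on a summit in a nuclear stretch resembling mitochondrial DNA, and on a summit in a pericentromeric repeat.
CHM, chrX:86047610-86047652, minus strand: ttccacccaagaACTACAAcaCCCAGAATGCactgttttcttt
DQX1, chr2:74526390-74526432, minus strand: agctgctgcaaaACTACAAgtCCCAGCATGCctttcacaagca
Chromosome 21 block, highest score, chr21:6369799-6369840, plus strand: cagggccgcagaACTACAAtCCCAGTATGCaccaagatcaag
Chromosome 21 block, repeated copy, chr21:6218681-6218722, minus strand: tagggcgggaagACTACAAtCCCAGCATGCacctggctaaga
CKM, chr19:45325846-45325879, minus strand: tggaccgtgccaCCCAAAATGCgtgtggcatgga
Highest score, chr3:93470551-93470651, plus strand: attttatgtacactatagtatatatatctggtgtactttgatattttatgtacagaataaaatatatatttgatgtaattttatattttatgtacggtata
U2 array, chr17:43251665-43251765, plus strand: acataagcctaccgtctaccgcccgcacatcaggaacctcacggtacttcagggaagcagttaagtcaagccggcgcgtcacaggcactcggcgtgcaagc
Near MTCYBP13, chr17:22521346-22521446, plus strand: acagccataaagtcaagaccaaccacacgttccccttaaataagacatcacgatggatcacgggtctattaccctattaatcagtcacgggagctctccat
Pericentromeric repeat, chr5:49601574-49601674, plus strand: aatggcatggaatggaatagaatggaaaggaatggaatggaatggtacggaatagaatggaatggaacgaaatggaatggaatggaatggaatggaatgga

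Outside summits were mostly weak, and the strong ones were mostly repeated. Their median score was 27.6, with quartiles of 21.4 and 44.8, against 68.2 for summits in a window, with quartiles of 34 and 163.4. When the 129965 high-scoring summits were divided into 10 score classes of equal size, 27.6% of the lowest class lay outside windows, 7.2% of the fifth, 2.42% of the ninth and 3.18% of the highest. Repetition was measured as the number of times the 31 bases centred on the summit occur in hg38, on either strand. Only exact matches were counted. Unique sequence below means sequence without an exact 31-base repeat within 100 bp of the summit. This centre sequence occurred more than once for 23.2% of outside summits, 2949 in number (95% Wilson interval 22.5 to 23.9%), and for 7.28% of summits in a window (7.13 to 7.43%). Weighting the in-window summits to the scores of the outside summits gave 8.68%. These intervals cover counting error only, and neighbouring summits are not independent of each other.

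Among outside summits the repeated share was higher in the higher score classes, while among summits in a window it was lower there. It was 12.8% in the lowest class (11.7 to 13.9%) and 9.4% for in-window summits of the same scores (8.82 to 10%). In the ninth class it was 73.2% (68.1 to 77.8%) against 4.71% (4.35 to 5.09%), and in the highest 70% (65.4 to 74.2%) against 4.29% (3.95 to 4.66%). The intervals of outside and in-window summits did not overlap in any of the 10 classes. Of 413 outside summits in the highest class, 62 had no repeated 31-base sequence anywhere within 100 bp. The outside summits therefore comprised many weak sites in unique sequence, 2686 of the 3589 members in the lowest class having no repeat, and few strong sites that were largely repeated.

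**Figure D1:**
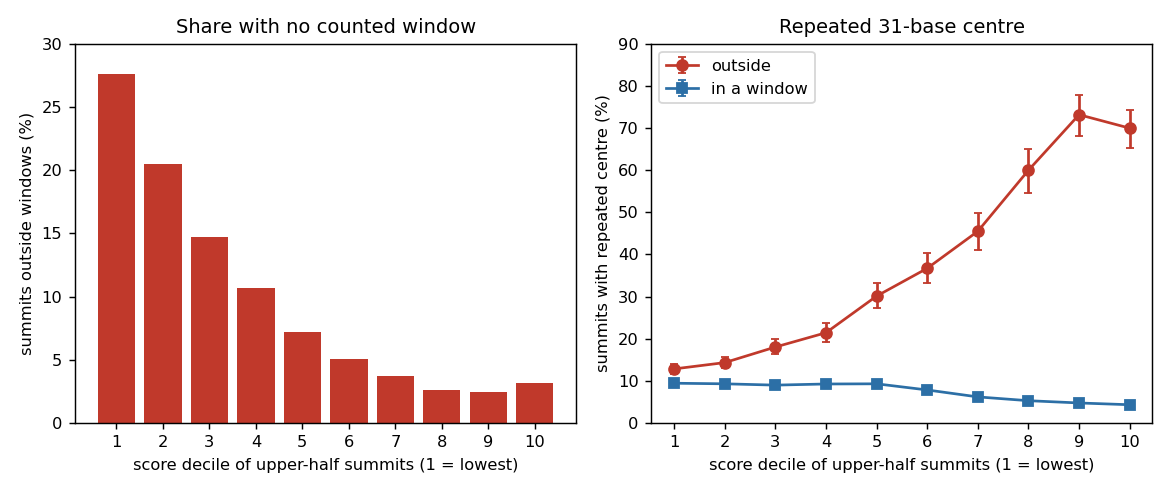
Left, share of high-scoring summits that lie outside counted windows, in %, by score class from 1, the lowest, to 10. Right, share of summits whose central 31 bases occur more than once in hg38, for summits outside (circles) and inside windows (squares), with 95% Wilson intervals; the outside share runs from 12.8% to 73.2% in the ninth class and the in-window share falls from 9.4% to 4.29%.

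Outside summits ranged from sites beside a window to sites far from any, and their properties varied with that distance. The median distance was 3078 bp, with quartiles of 655 and 24615 bp. Within 1000 bp of a window there were 3956 outside summits, of which 5.54% had a repeated centre. At more than 20000 bp there were 3473, of which 64.2% had one. The repeated share was 5.91% at 101 to 200 bp (4.69 to 7.41%), 14.2% at 5001 to 20000 bp (12.7 to 15.8%), 41.4% at 20001 to 100000 bp (39 to 43.9%) and 89.6% beyond 1000000 bp (86.1 to 92.3%). Promoters showed the opposite order near windows. A transcript start of GENCODE release 44 lay within 500 bp of 40.7% of the summits at 101 to 200 bp (37.9 to 43.5%), 13% of those at 501 to 1000 bp (11.3 to 15%) and 6.65% of those at 1001 to 5000 bp (5.85 to 7.55%). At 20001 to 100000 bp it was 12.1% (10.6 to 13.7%), higher than at 1001 to 20000 bp, with intervals that did not overlap.

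**Figure D2:**
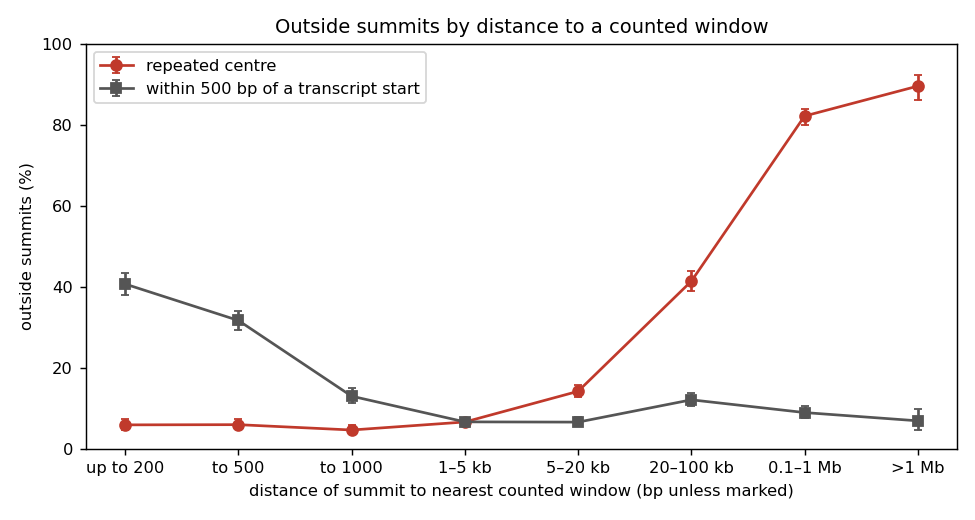
Share of outside summits, in %, with a repeated central 31-base sequence (circles) and with a transcript start within 500 bp (squares), by distance to the nearest counted window; bars are 95% Wilson intervals. The repeated share climbs from 5.91% to 89.6%, while the share at starts falls from 40.7% to 6.65% at 1 to 5 kb.

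Near transcript starts, outside summits were spread to both sides of the start, more often downstream of it. The 2015 outside summits within 1000 bp of both a window and a start had a median position 176 bp downstream of that start, with quartiles of -356 and 559.5 bp. The 29703 summits in a window within 1000 bp of a start had a median of -27 bp, with quartiles of -139 and 156 bp. Of the former, 58.7% lay downstream of the start (56.5 to 60.8%), against 39.2% of the latter (38.6 to 39.7%). The last 200 bp before the start held 40.3% of the in-window summits and 9.88% of the outside ones (8.65 to 11.3%). No 200-bp class held more than 14.3% of the outside summits (12.9 to 15.9%), the highest share lying at 200 to 400 bp downstream. The exclusion of summits within 100 bp of windows shapes this profile, since windows of 401 bp cover many starts.

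**Figure D3:**
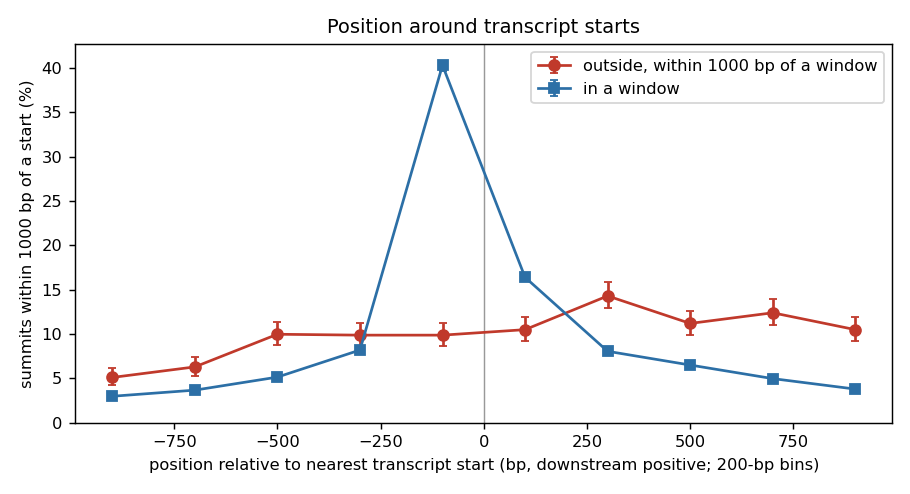
Position of summits relative to the nearest transcript start, in 200-bp classes from 1000 bp upstream to 1000 bp downstream, as % of the 2015 outside summits (circles) or the 29703 in-window summits (squares); bars are 95% Wilson intervals. In-window summits peak at 40.3% just upstream of the start, and outside summits are spread, at 5.11% to 14.3% per class.

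A smaller share of outside than of in-window summits lay at a start, and a larger share lay over 50000 bp away. A start lay within 500 bp of 14.4% of outside summits (13.8 to 15%), 1832 in number, against 20.3% of in-window summits (20.1 to 20.6%) and 15.8% after weighting to the same scores. In the fourth to seventh score classes the outside share was higher, for example 22.1% against 18.1% in the sixth. In the other classes it was lower, for example 28.8% against 40.7% in the highest. Of summits at 1 to 100 bp from a window, 41.7% were at a start. More than 50000 bp from any start lay 14.6% of outside summits (14 to 15.2%) and 10.3% of in-window ones (10.1 to 10.5%). Among outside summits this share was 10.2% where the centre occurred once and 29.1% where it was repeated. The median distance to a start was shorter outside, 4220.5 bp against 7114 bp in windows. Introns held 54.7% of outside summits (53.9 to 55.6%) and 55.3% of in-window ones (55 to 55.6%). Annotated UTRs held 3.51% (3.2 to 3.84%) and 5.27% (5.14 to 5.4%), and coding exons 1.42% (1.22 to 1.64%) and 1.58% (1.51 to 1.66%). The GC content of the 201 bases around a summit had a median of 44.3% outside and 49.3% in windows. Among outside summits it was 43.8% where the centre occurred once and 47.3% where it was repeated.

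Short motif letters were counted in the 201 bases around each summit, on both strands, as a description of sequence and not as binding sites. The CTCF-type motif was in 4.21% of outside summits (3.87 to 4.57%), 8.49% of in-window ones (8.34 to 8.66%) and 4.86% of all 259926 summits. After weighting to the outside scores the in-window share was 5.57%. Within the outside set the CTCF share was lowest, 0.942%, at 101 to 200 bp from a window and highest, 8.44%, at 20001 to 100000 bp. The SP and KLF box GGGCGGG, typical of GC-rich promoters, was in 3.12% of outside summits (2.83 to 3.44%) against 8.88% in windows (8.71 to 9.04%) and 5.44% of all. The ETS motif CCGGAAG was in 1.2% (1.03 to 1.41%) against 2.76% (2.67 to 2.85%) and 1.66% of all. The NRF1 motif was in 0.11% (0.0656 to 0.185%), against 0.233% (0.207 to 0.262%) and 0.122% of all. Weighted to the outside scores, the in-window shares were 6.9% for SP and KLF, 1.77% for ETS and 0.143% for NRF1, the last within the interval of the outside summits.

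Letters read by TEAD, AP-1 and GATA factors were more frequent outside. ACATTCC, read by TEAD factors, was in 5.48% of outside summits (5.1 to 5.89%), 3.42% of in-window ones (3.32 to 3.53%) and 3.67% of all, and weighting left the in-window share at 3.38%. TGANTCA, read by AP-1, was in 11% (10.5 to 11.6%), 9.06% (8.89 to 9.22%) and 9.45% of all. GATAAG, read by GATA factors, was in 11.1% (10.6 to 11.7%), 9.88% (9.71 to 10%) and 10.3% of all. The E-box CACGTG was less frequent outside, in 2.34% (2.09 to 2.61%), 3.42% (3.32 to 3.53%) and 2.91% of all. CCAAT, read by NF-Y, was in 24.7% of both sets and 24.6% of all. The ZNF143 core was in 0.936% of outside summits (0.783 to 1.12%), 119 in number, 0.896% of in-window ones (0.843 to 0.952%) and 0.789% of all. As counted, its share did not differ beyond counting error. The 119 include 31 summits on chromosome 21 before its first window, which hold both parts, 27 of them with a repeated centre. These 31 may not be independent sites, and the share without them was not computed. The upstream part ACTACAA was in 2.71% (2.45 to 3.01%), 2.18% (2.09 to 2.26%) and 2.25% of all. GC content differs between the sets, and its part in these shares was not tested.

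**Figure D4:**
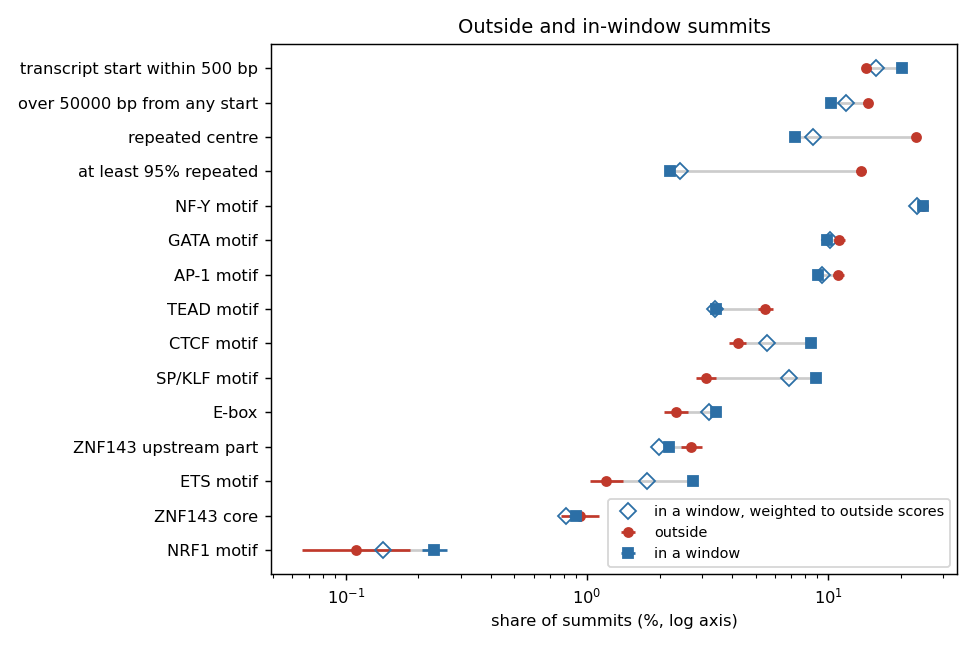
Share of outside (circles) and in-window (filled squares) high-scoring summits with each feature, in % on a log axis, with 95% Wilson intervals; open diamonds are in-window summits weighted to the scores of the outside ones. Repeated centres are at 23.2% against 7.28%, the TEAD motif at 5.48% against 3.42%, and the CTCF and SP/KLF motifs lie lower outside.

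The core and the upstream part of the ZNF143 site occurred together in 39 outside summits and 92 in-window ones. Their spacing differed between the sets mainly through 1 block on the short arm of chromosome 21. Both parts stood on the same strand with the upstream part first in 29 of the 39 and 66 of the 92. In 53 of those 66 in-window sites, 2 bases separated the parts, and in 3 a single base did. In the outside summits 4 had 2 bases between the parts, and 24 had 1. The 4 were at CHM, DQX1, SNX16 and near ENSG00000289579. Of the 24, 23 lay on the short arm of chromosome 21 and the other, near AGGF1P2 on chromosome 10, was 94.7% repeated. The remaining ordered outside site, near CRLF3P3, had 21 bases between the parts. Away from the chromosome 21 block, 2 bases was the commonest spacing, as in windows. The 4 summits with 2 bases between the parts had no repeated 31-base sequence, whereas most of those with 1 base had a repeated centre.

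The chromosome 21 sites were 6 clusters of 3 to 4 summits, 285 to 766 bp apart within a cluster. They held 2 distinct 18-base sites. The one printed for the highest score occurred in 2 of the 23, and the one printed for the repeated copy in the other 21. Their scores ran from 171.0 to 1857.7, with a median of 425.6. In 19 of the 23 the centre was repeated, with a median of 5 copies and at most 6. The site centre lay a median of 60 bp from the summit. The nearest annotated starts, mostly of Y_RNA genes, which encode small cytoplasmic RNAs, were 363 to 6692 bp away. Because most of their centres are repeated, these 23 summits may share reads and are not independent sites. The highest-scoring one was 7.02% repeated, with 1 copy of the centre. Before the first window on this chromosome, which starts at chr21:8695957, there were 234 outside summits, and 31 of them had both parts. Chromosome 21 had 26.6% of its high-scoring summits outside windows (24.4 to 29%) and Y 61.1% (54.7 to 67.2%), whereas the other chromosomes had 6.88% to 12.5%.

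In every gene class of the fixed list more genes had an in-window than an outside summit, for example 97 against 21 small nuclear RNA genes. The opposite held for some families of small or ribosomal RNA genes, which were chosen after their values were seen. The U2 array on chromosome 17, which encodes the U2 small nuclear RNA of the spliceosome, was 1 stretch without windows, chr17:43200573-43331810, with 34 outside summits. Of these, 19 lay within 500 bp of the starts of its 13 annotated genes, with scores of 822.3 to 6438.2 and a median of 1092.6. Their centre sequences had a median of 14 copies, and 17 of the 19 were at least 95% repeated. All 5 genes of the U3 small nucleolar RNA, which acts in ribosomal RNA processing, had an outside summit at the start and none an in-window one. Of 28 snaR genes, a family of small noncoding RNAs, 20 had an outside and 2 an in-window summit. Of 4 genes of the 45S precursor of ribosomal RNA, 3 had an outside summit and none an in-window one. The 17 genes of 5S ribosomal RNA were the reverse, with an in-window summit at all 17 and an outside one at none. Transfer RNA genes were mostly in windows, with 311 of 443 against 59 at an outside summit. At 20033 protein-coding genes the numbers were 12907 in-window and 1210 outside, with 1034 having both. Of 515 genes with a ZNF name, 417 had an in-window and 19 an outside summit.

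The highest-scoring outside summits were of unlike sequence. The highest score of the list, 28705, was at chr3:93470601, 292979 bp from the nearest window and 373163 bp from the nearest start, in the pericentromeric part of chromosome 3. The highest score in a window was 6351.9. The 201 bases of the chromosome 3 summit had a GC content of 21.4%, and 1.17% of their 31-base sequences were repeated. This summit was thus in AT-rich sequence with few exact 31-base repeats in hg38. Inexact copies were not counted, so this does not show that the sequence occurs once. The second, 6438.2, was the U2 summit printed above, with 63.7% of its 31-base sequences repeated. RASA4 and RASA4B, paralogs on chromosome 7, had summits of 3901.9 and 3710.3 that were 100% repeated. The next 3 were in the ribosomal RNA units of chromosome 21, at 3667.1, 3619.1 and 3395.3, each 100% repeated with 3 copies of the centre.

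A summit of 3325.0 at chr17:22521396, near the pseudogene MTCYBP13, was 2.34% repeated within the nuclear and mitochondrial chromosomes, and 4 of its 31-base sequences matched the mitochondrial genome. Over the set, 4 outside summits and no in-window summit had such a match. In ATAC-seq, mitochondrial DNA is cut readily because it carries no nucleosomes. The pericentromeric repeat of chromosome 5, at chr5:49601624 with a score of 2835.5, contains GGAAT repeats, the unit of human satellite families, and 1 of its 31-base sequences occurs 5064 times. Further members at chr5:49658655, chr10:41859938 and chr5:49602421 had scores of 2641.2, 2435.7 and 1913.2 and 31-base sequences with up to 4945, 5064 and 5064 copies. Depth per copy cannot be derived from a list without counts.

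Most outside summits lay alone between consecutive windows, and a smaller part lay in dense stretches. Of 8921 stretches between windows that held any, 7790 held 1 outside summit. The 119 stretches with at least 5 held 2671 members, or 21%. After the 234 on the short arm of chromosome 21, the fullest were pericentromeric, with 124 members at chr4:49013395-51831122, 104 at chr1:125015973-143563414 and 104 at chrY:9941825-11475385. Their members had a median of 85.7%, 100% and 46.8% repeated 31-base sequences, respectively. The stretch chr5:69521561-71385251, which holds the duplicated genes SMN1, SMN2 and GTF2H2, had 52, with a median of 100%. SMN1 and SMN2 encode the protein that assembles spliceosomal particles, and their promoter summits both scored 57.5, 100% repeated with 2 copies.

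In 11 of the 119 stretches the median share of repeated sequence was below 5%, and these held 121 outside summits. The longest was the end of chromosome 5, chr5:181170559-181538259, with 38 summits of which 20 had no repeat at all. It includes the promoters of TRIM41, a ubiquitin ligase, RACK1, a ribosomal scaffold protein, and TRIM52. The end of chromosome 19, chr19:58520078-58617616, had 12, including TRIM28, the corepressor recruited by KRAB zinc finger proteins, UBE2M, CHMP2A and MZF1. The stretch chr14:23025510-23104454 had 12, all without a repeat and 9 of them at coding starts, with PSMB5, a proteasome subunit, CDH24 and ACIN1. A stretch with ZBTB11 and RPL24, a ribosomal protein gene, chr3:101638515-101701894, had 8.

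In total, 132 protein-coding genes had an outside summit and no counted window within 500 bp of any of their starts. The summit was free of repeated sequence at 61 of these, at least 95% repeated at 36 and between those at 35. Among the unique ones the highest score, 2929.7, was that of HACL1, a peroxisomal lyase gene. This summit lay at chr3:15601675, 83 bp from the start of HACL1, in an annotated UTR of the adjacent BTD and 10982 bp from the nearest window. ACIN1, an apoptosis and splicing factor, followed at 2242.4, 58 bp from its start. Further examples were ZBTB11 at 1476.7, CDV3 1308.3, TRIM41 1148.7, PSMB5 841.5, TRIM28 809.5, CHM 789.4, TMF1 786.8 and EAPP 747.7, each with a window distance of at least 9760 bp. These examples were picked from the high end of the scores, and all exceeded the upper quartile of in-window summits, 163.4. Others of the 61 fell below it, such as HOXB8 at 33.3 and KYNU at 18.8. CHM, which encodes a Rab escort protein, had its summit 21 bp from the start and 32806 bp from a window. DQX1 had a weaker one, 40.8, at 99 bp from the start and 2909 bp from a window.

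Several genes with repeated summits belong to duplicated families or shared chromosome regions. SLX1B and BOLA2 on chromosome 16 shared a summit of 1284.3, 100% repeated with 2 copies. Summits at POLR2J and POLR2J3, which encode a subunit of RNA polymerase II and its paralog, scored 285.1 and 321.1 and were 67.3% and 91.8% repeated. Genes of the region that X and Y share were also in this group. PLCXD1 scored 675.1, GTPBP6 285.6, CD99 113.1 and SLC25A6 53.6 on X, and VAMP7 509.6 on Y, each 100% repeated with 2 copies. A strong outside summit could also lie beside a counted promoter, as at UBP1, where a summit of 1592.3 in unique sequence was 363 bp from the start and 159 bp from a window.

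Since the outside summits themselves have no counts, the effect of dTAGV-1 could be measured only in the counted windows next to them. There were 5752 windows within 1000 bp of an outside summit, and 5486 had enough counts to be tested. In edgeR's quasi-likelihood test at an adjusted p of 0.05, 12 of the 5486 were lower after dTAGV-1, or 0.219%, and 0 were higher. Among all 185040 tested windows 395 were lower, or 0.213%, and 2 were higher, or 0.00108%. The share beside outside summits was near this background in this fit. With the replicate number as a block in the model, 48 near windows were lower, or 0.875%, and 1 higher, against 0.401% of all windows lower. The share was also above that of all windows without control replicate 12, the library with the fewest counts. Without it, 41 of 5520 near windows were lower, or 0.743%, and 0 higher, against 0.331% of all windows lower. DESeq2 called 17 near windows lower, or 0.304%, and 0 higher, against 0.241% of all windows lower. At an unadjusted p of 0.05, 81 of the near windows were lower, or 1.48%, against 1.55% of all windows, and 30 were higher, or 0.547%, against 1.3%. The median log2 fold change of the near windows was 0.0019, with quartiles of -0.074 and 0.074, against 0.0077 for all windows. Near windows had more counts than most, with a median of 3.14 log2 CPM against 1.46, and the excess of their median over that of all windows was 0.787 to 1.91 in the single libraries. It was smallest in control replicate 12.

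Among the 12, the largest change was in the window chr19:48419229-48419629 in the gene of GRIN2D, a glutamate receptor subunit, 285 bp from an outside summit that scored 21. The control libraries had 2.74 log2 CPM at the lowest, 2.95 at the median and 3.17 at the highest, and the dTAGV-1 libraries 1.27, 1.8 and 2.26. All 8 treated libraries lay below all 8 controls. The log2 fold change was -1.22 (SE 0.16, edgeR adjusted p = 1.61e-06). At the window chr1:156746580-156746980, 691 bp from the start of HDGF, a growth factor gene, controls ran from 3.02 through a median of 3.55 to 3.88 log2 CPM and treated libraries from 2.16 through 2.54 to 3.13. Of the treated libraries 7 of 8 lay below all controls, and the log2 fold change was -1.01 (SE 0.15, edgeR adjusted p = 2.28e-05). The outside summit beside it scored 35.8 and lay 590 bp away.

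At the start of ADCK1, which encodes a mitochondrial protein, the window chr14:77799881-77800281 had control values of 3.08, 4.37 and 4.51 log2 CPM at the lowest, median and highest and treated values of 3.16, 3.4 and 3.7. The groups overlapped through control replicate 12, the other 7 controls being at 4.08 or above. The log2 fold change was -0.85 (SE 0.14, edgeR adjusted p = 0.000402). The window chr19:45326135-45326535, 3460 bp from the start of CKM, had 3.78, 4.27 and 4.44 in controls and 3.3, 3.5 and 3.77 in treated libraries, with no overlap and a log2 fold change of -0.71 (SE 0.13, edgeR adjusted p = 0.0021). Its outside summit, with a score of 27.6, carries the ZNF143 core printed above, 268 bp outside the window, whereas the window itself holds neither the core nor ACTACAA. At the start of ZNF782, a zinc finger gene, the window chr9:96875747-96876147 had 4.33, 5.07 and 5.33 in controls and 3.96, 4.35 and 4.46 in treated libraries. Here 3 of 8 treated libraries lay below all controls, and the log2 fold change was -0.75 (SE 0.14, edgeR adjusted p = 0.00223).

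**Figure D5:**
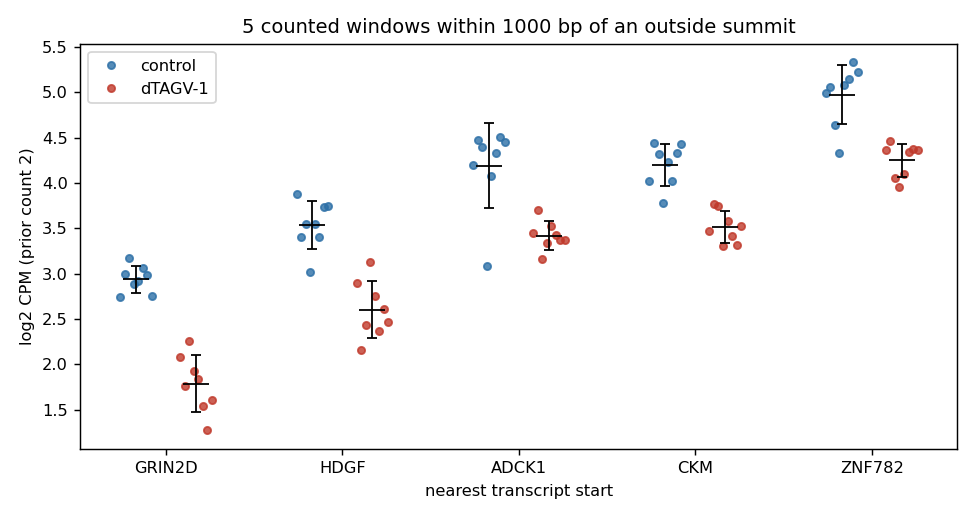
Log2 CPM with a prior count of 2 in each of 8 control and 8 dTAGV-1 libraries for the 5 windows with the smallest p among those within 1000 bp of an outside summit, named by the nearest transcript start; bars are mean and SD. Treated libraries lie below all controls at GRIN2D and CKM, and 1 control at ADCK1 lies at 3.08.

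The other 7 lower windows had their nearest starts at JOSD2, ZNF33A, CEP97, ENSG00000286527, PPP1R12B, CDC26 and MACROD1. Over the 12, the log2 fold change was -0.56 to -1.22, with SEs of 0.13 to 0.16, and in 3 the groups did not overlap. In the other 9, control replicate 12 alone overlapped the treated libraries, and without it the groups did not overlap in any of the 12. Of the 12 windows, 7 contain ACTACAA and 1, at PPP1R12B, the core, against 3.84% and 1.95% of all 212358 windows. These shares were not counted in the windows called lower elsewhere. Whether they are particular to windows near outside summits is therefore not known. The outside summits beside them scored 18.9 to 98.2, and the ZNF143 core was within 100 bp of 1 of them, that near CKM. Whether the outside summits changed with dTAGV-1 was not measured in the files analysed here.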

How the data were processed

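Reads were trimmed with cutadapt 1.8.1 and handled with Bowtie2 2.4.4 and SAMtools 1.9 on build hg38, per the submitters' processing notes, which give no settings. The peak caller, the counting tool, the treatment of reads that align to several places and any exclusion of regions are not given in the sources used here. The authors deposited whole-number counts per 401-bp window for 16 libraries, not normalized. The authors also deposited 259926 summits with a -log10 score, which was used only to rank summits within that list. The number of per-sample columns left unused was 0. The members, gene lists and comparisons were chosen with earlier results of these data known.

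Occurrences of 31-base sequences were counted in hg38 (chromosomes 1 to 22, X, Y and the mitochondrial genome) by exact match on both strands. Annotation came from GENCODE 44 and, for small RNA classes, RefSeq. The 201 bases around each summit were searched for 11 motifs. Shares have 95% Wilson intervals (scipy 1.17.1), for counting error only. The count test was edgeR's quasi-likelihood test (version 4.0.16 under R 4.3.3) after filterByExpr and TMM, without covariates, with Benjamini-Hochberg adjustment over 185040 windows. Log2 CPM used a prior count of 2. DESeq2 1.42.0 was an alternative. Sequence counting and the count test were tested on simulated data. Named summits were the 10 highest scores, the 10 highest at coding starts and the 5 highest over 50000 bp from a start, without chromosome 8, and named windows the 5 with the smallest p. Further genes, gene families and the spacing of the ZNF143 parts were chosen after their values were seen. Some items that these rules name are not reported here.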

Additional observations from a re-analysis of the deposited data

Results flagged for a closer look

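In the window at the start of ADCK1, 1 of 8 control libraries stood apart. Control replicate 12 had 3.08 log2 CPM, and the other 7 controls had 4.08 to 4.51, so that its gap to the nearest was a larger part of the group's range than Dixon's 95% critical value allows. The same library was the lowest control in 11 of the 12 windows called lower near outside summits, for example with 4.38 against 5.28 or more at JOSD2 and 4.86 against 5.73 or more at PPP1R12B, so its low value was not particular to ADCK1. Chance flags about 1 group in 20, and 10 groups were examined, 5 windows in 2 groups each. This library had the fewest counts, 2275856, and the lowest excess of windows near outside summits over all windows, 0.787 log2 CPM. Its part in the values at ADCK1 was not tested.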

How the results depend on the processing

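Restricting the summits to the upper quartile of the score left 2208 outside summits, with 22.6% at a start, a median GC content of 48.8%, the CTCF-type motif in 6.2% and a repeated centre in 53.6%. Requiring more than 1000 bp to a window left 8754 and requiring only that no window covers the summit gave 14505, both within 1.5 times the 12710. At more than 1000 bp, 8.03% were at a start, median GC was 43.8%, CTCF 5.52% and repeated 31.2%. Counting starts within 1000 bp gave 24.4%. Alternatives chosen after seeing the data kept only members with a single-copy centre, giving 15.4% at a start, a GC median of 43.8% and CTCF in 3.81%, and called a summit repeated only with at least 95% of its 31-base sequences repeated, giving 13.7%. All these shares and medians moved beyond the counting interval of the value reported. The planned share in soft-masked repeats could not be computed, since the genome used here is in capitals throughout.

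Of the windows near outside summits, 12 were called with DESeq2's size factors in edgeR, 17 with DESeq2 and 10 without the filter on low counts. Only windows within 500 bp gave 6 of 2951, fewer windows being tested. Of the 16 libraries, 3 were left out in turn, which gave 10 to 41 calls. The 41 came without control replicate 12, as 0.743% of near windows against 0.331% of all, the 10 without dTAGV-1 replicate 11 and 12 without dTAGV-1 replicate 12. With a replicate block the calls were 49, of which 48 were lower and 1 higher, 0.875% of near windows being lower against 0.401% of all. Under this setting and without control replicate 12, the near share was above that of all windows. In the labels, control and treated libraries of the same replicate share only the number. The correlation of same-numbered deviations was 0.0276 to 0.336, and for 4 of 8 numbers the control and treated library correlated best with each other. Whether the numbers mark libraries handled together, and the cause of the changes in calls, were not tested.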
